A study of Homo sapiens with 4 samples.

Results

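The regions described here, chosen by the presence and absence of peaks in the 3 lists, are H3K4me3 peaks at the ends of protein-coding genes that have no H3K79me2 peak nearby, in MCF10A, an immortalised human mammary epithelial cell line that does not form tumours. A region was taken when its H3K4me3 peak on chromosomes 1 to 22 was at least 1000 and under 8000 bp wide and lay within 1000 bp of either end of a protein-coding gene record. It also had to have no H3K79me2 peak within 5000 bp and no overlapping H3K27me3 peak. There were 771 such regions, which is 7.26% (exact 95% interval 6.77 to 7.77%) of the 10619 H3K4me3 peaks of that width at gene ends. The H3K4me3 list held 65793 peaks on these chromosomes. The rest of the 10619 comprised 8347 peaks with H3K79me2 nearby and no H3K27me3, 721 with H3K27me3 and no H3K79me2 nearby, and 780 with both. The absence rests on the permissive deposited H3K79me2 list: with H3K79me2 peaks of −log10 q of at least 1.3 or 5 alone, 2329 or 7260 gene-end peaks would meet the rule. Below, "peaks with H3K79me2 nearby" are the 8347 and "peaks with H3K27me3" are the 721.

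Chromatin immunoprecipitation and sequencing was carried out for each of the 3 marks in 1 library, and an input DNA library was also made. All cells had the same growth medium with 100 ng/ml of cholera toxin, and the labels name no treatment or genotype contrast. The comparisons are therefore between classes of peak within the same libraries. They have no replicate check and no test, and the intervals given cover counting of peaks only. As a check of the label of the line, 21 of 22 basal epithelial genes had an H3K4me3 peak with −log10 q of at least 5 at or inside the gene, against 5 of 15 immune genes. The check is rough, since luminal genes and the share of all genes were not counted in this way.

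H3K4me3 is laid down by the SET1 and MLL complexes at the starts of active genes and of many genes that are only ready for use, above all where the DNA is rich in CpG. H3K79me2 is laid down by DOT1L, which travels with the elongation machinery, and it covers the first kilobases of genes that RNA polymerase II transcribes productively. H3K27me3 is the mark of Polycomb repression. The regions here carry H3K4me3 without a called peak of either other mark at the same place.

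The start-site sequence of the members with the highest H3K4me3 enrichment shows the base composition of the promoters that carry the mark there. Sequences run from 250 bases before to 50 bases after the annotated start, on the strand of the gene, 5′ to 3′, and come from RefSeq (GRCh38.p14). Capitals mark the CG dinucleotides. TMTC2 lies at chr12:82686656-82686955 on the plus strand, STOX2 at chr4:183797772-183798071 on the plus strand and HLX at chr1:220879193-220879492 on the plus strand. INPP4B lies at chr4:142846252-142846551 on the minus strand, FZD4 at chr11:86955346-86955645 on the minus strand and NKX2-8 at chr14:36582565-36582864 on the minus strand.
TMTC2: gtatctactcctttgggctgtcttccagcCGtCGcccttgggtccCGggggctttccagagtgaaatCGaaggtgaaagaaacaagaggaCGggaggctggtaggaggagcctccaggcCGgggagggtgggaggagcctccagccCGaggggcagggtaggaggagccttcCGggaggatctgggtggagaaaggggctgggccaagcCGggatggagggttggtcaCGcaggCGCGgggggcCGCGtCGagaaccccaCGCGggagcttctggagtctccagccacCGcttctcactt
STOX2: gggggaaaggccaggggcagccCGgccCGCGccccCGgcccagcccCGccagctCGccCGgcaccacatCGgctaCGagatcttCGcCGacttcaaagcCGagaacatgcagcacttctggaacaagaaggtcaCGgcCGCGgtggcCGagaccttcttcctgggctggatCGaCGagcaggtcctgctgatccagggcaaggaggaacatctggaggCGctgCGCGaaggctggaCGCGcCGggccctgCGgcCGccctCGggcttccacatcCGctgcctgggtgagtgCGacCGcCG
HLX: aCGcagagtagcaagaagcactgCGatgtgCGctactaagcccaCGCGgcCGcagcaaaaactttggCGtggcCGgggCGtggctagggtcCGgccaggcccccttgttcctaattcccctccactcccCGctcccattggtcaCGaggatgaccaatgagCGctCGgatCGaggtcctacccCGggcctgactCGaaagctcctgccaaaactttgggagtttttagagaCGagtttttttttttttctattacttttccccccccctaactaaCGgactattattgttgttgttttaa
INPP4B: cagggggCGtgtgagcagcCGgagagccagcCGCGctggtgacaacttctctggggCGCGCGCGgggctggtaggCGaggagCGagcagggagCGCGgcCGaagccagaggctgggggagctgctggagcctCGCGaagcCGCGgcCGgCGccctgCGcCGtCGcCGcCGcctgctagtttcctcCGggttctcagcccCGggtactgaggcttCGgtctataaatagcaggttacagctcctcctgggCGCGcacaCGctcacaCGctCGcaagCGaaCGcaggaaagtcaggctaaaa
FZD4: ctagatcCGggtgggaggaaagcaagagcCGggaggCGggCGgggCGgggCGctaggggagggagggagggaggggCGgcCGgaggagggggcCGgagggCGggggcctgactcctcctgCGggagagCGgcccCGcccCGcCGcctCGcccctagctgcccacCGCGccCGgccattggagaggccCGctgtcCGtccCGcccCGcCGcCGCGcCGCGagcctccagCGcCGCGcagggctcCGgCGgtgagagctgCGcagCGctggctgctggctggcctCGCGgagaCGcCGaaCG
NKX2-8: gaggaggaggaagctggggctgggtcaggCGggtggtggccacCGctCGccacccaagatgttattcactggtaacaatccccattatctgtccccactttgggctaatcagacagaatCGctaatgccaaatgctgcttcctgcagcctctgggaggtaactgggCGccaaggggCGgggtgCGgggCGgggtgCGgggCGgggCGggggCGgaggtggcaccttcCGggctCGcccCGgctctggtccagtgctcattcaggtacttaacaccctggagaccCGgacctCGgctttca
The number of CG in 300 bases was 18 for TMTC2, 31 for STOX2, 19 for HLX, 34 for INPP4B, 40 for FZD4 and 17 for NKX2-8. A window was called CpG-rich when its observed over expected CpG ratio was at least 0.6 and its GC content at least 50%. The ratio was 0.844 in STOX2, 0.890 in HLX, 0.969 in INPP4B and 0.853 in FZD4, which were all CpG-rich. It was 0.587 in TMTC2 and 0.561 in NKX2-8, just under the limit. GC content ran from 53.7% in HLX to 79.7% in FZD4.

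The most enriched members included starts of transcription factor, receptor and signalling enzyme genes. Values are the authors' fold enrichment of each peak over the caller's background, and each is 1 value from 1 library. The homeobox factor genes HLX and NKX2-8 had folds of 23.4 and 22.6 in peaks of 1724 and 2419 bp, and their nearest H3K79me2 peaks were 50775 and 79447 bp away. STOX2, a winged-helix gene of the storkhead family, had 24.6-fold, and ZHX2, a gene of a zinc finger and homeobox repressor, had 23.5-fold. TMTC2, an enzyme gene for O-mannosylation in the endoplasmic reticulum, had the highest fold of all members, 24.9 in a peak of 2904 bp, and was 52628 bp from H3K79me2.

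Among receptors and enzymes, FZD4, a frizzled receptor of Wnt and Norrin signalling, had 23.04-fold and lay 6240 bp from H3K79me2. INPP4B, which removes a phosphate from a phosphoinositide of the PI3K pathway, had 23.3-fold. NEIL1, a DNA glycosylase of base excision repair, had 22.8-fold, and CYP46A1, the cholesterol 24-hydroxylase, had 22.7-fold. CCDC85A had 22.1-fold, and a peak over the starts of both SPACA9 and AK8 had 22.2-fold. The peak at the far ends of EXTL1 and SLC30A2, a zinc transporter gene, had 22.9-fold, so not every high value sat at an annotated start. The 12 highest folds thus lay between 22.1 and 24.9, inside the range of the 8347 peaks with H3K79me2 nearby, whose highest was 30.2.

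The widest members were not the most enriched. The widest peak, 6511 bp, lay over DBP, a circadian bZIP factor gene, and CA11, and had 11.0-fold. PCDH7, a protocadherin gene, had 6138 bp and 21.3-fold, with H3K79me2 114445 bp away. DNAJB5, a heat shock cochaperone gene, had 5340 bp and 10.1-fold, and SHF, an SH2 adaptor gene, had 4927 bp and 14.2-fold. By contrast ROBO4, a roundabout receptor gene of endothelium, had 5372 bp at 2.33-fold and a −log10 q of 0.772, and the peak shared by KRT15 and KRT19 had 5179 bp at 3.08-fold. The 6 widest members thus held both strong and weak peaks.

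The 6 members farthest from H3K79me2 lay between 305532 and 527976 bp from it. PABPC4L was 527976 bp away, CDH10, a cadherin gene, 391629 bp, and NALF1, an auxiliary gene of the NALCN channel, 344124 bp. EYS, a photoreceptor gene, was 322436 bp away, PLCB4, a phospholipase C gene, 307799 bp, and SLITRK1, a neuronal transmembrane gene, 305532 bp. Of these 6, PLCB4 had 17.6-fold, and the folds of the rest ran from 2.03 at EYS to 6.23 at PABPC4L. The peaks of EYS and SLITRK1 had −log10 q of 0.249 and 1.25 and did not reach a q of 0.05.

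The members had weaker and narrower H3K4me3 than the peaks with H3K79me2 nearby. Their median fold was 7.95 (95% interval of the median 7.27 to 8.45), against 16.8 for peaks with H3K79me2 nearby. With H3K79me2 peaks of −log10 q of at least 1.3 it was 12.5 against 17.1, with at least 5 it was 16.2 against 17.2, and with a minimum width of 500 bp 4.72 against 16.6. The quartiles were 3.78 and 12.5 for members, against 14.1 and 19.3, so the upper quartile of members lay below the lower quartile of the others. Peaks with H3K27me3 had a median of 9.79. Median width was 1587 bp in members, 3549 bp in peaks with H3K79me2 nearby and 1720 bp in peaks with H3K27me3. In bulk chromatin, fewer cells with the mark and less mark per cell cannot be told apart.

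A fold of at least 10 was reached by 304 members (39.4%), against 7625 of the peaks with H3K79me2 nearby (91.4%) and 84.5% of all gene-end peaks of this width. A −log10 q of at least 1.3, which is a q of 0.05, was reached by 692 members (89.8%), against 98.6% of peaks with H3K79me2 nearby and 98% of all gene-end peaks. At a −log10 q of at least 5 the count was 555 members (72.0%), against 96.3% and a background of 94.2%. The label of gene-end H3K4me3 therefore holds at the caller's q for most but not all members.

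**Figure D1:**
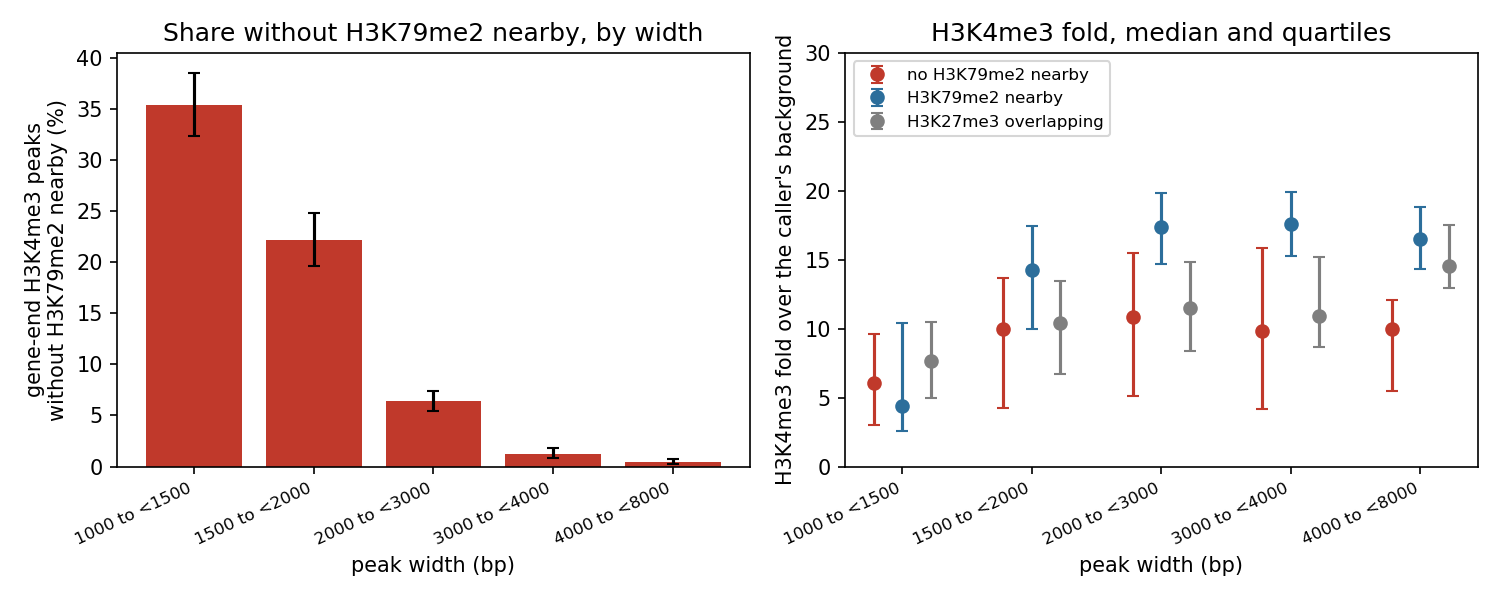
Left, share of gene-end H3K4me3 peaks (percent, y axis) that are members, in 5 classes of peak width in bp (x axis). Exact 95% intervals are shown as bars. Peaks that lack H3K79me2 nearby but overlap H3K27me3 are not members. Right, median H3K4me3 fold (points) with quartiles (lines) in the same classes for members, peaks with H3K79me2 nearby and peaks with H3K27me3. The share was 35.4% in the narrowest class and 0.466% in the widest.

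The share of members was lower in wider peaks. Of gene-end peaks of 1000 to under 1500 bp, 329 of 929 (35.4%) were members, and of those of 1500 to under 2000 bp 227 of 1024 (22.2%) were. The share was 6.38% at 2000 to under 3000 bp, 1.26% at 3000 to under 4000 bp and 0.466% (17 of 3648) at 4000 to under 8000 bp. No H3K4me3 peak of 8000 bp or more met the other conditions (0 regions). Within a width class the order of the folds was not the same throughout: in the narrowest class the median was 6.08 in members and 4.37 in peaks with H3K79me2 nearby. In the next 3 classes it was 9.98, 10.9 and 9.85 in members, against 14.3, 17.4 and 17.6 in peaks with H3K79me2 nearby. Width therefore moves with the lower fold of members, and its part in that difference was not tested.

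Members were also more frequent among weak peaks. Members were 34.0% of gene-end peaks under 5-fold, 23.5% of those from 5 to under 10, 7.59% of those from 10 to under 15 and 1.70% of those of at least 15. Even so, 109 members had at least 15-fold. Across the 771 members, fold and width had a Spearman coefficient of 0.31, and fold and distance to H3K79me2 one of 0.07, both given as descriptions of peaks from 1 library.

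**Figure D2:**
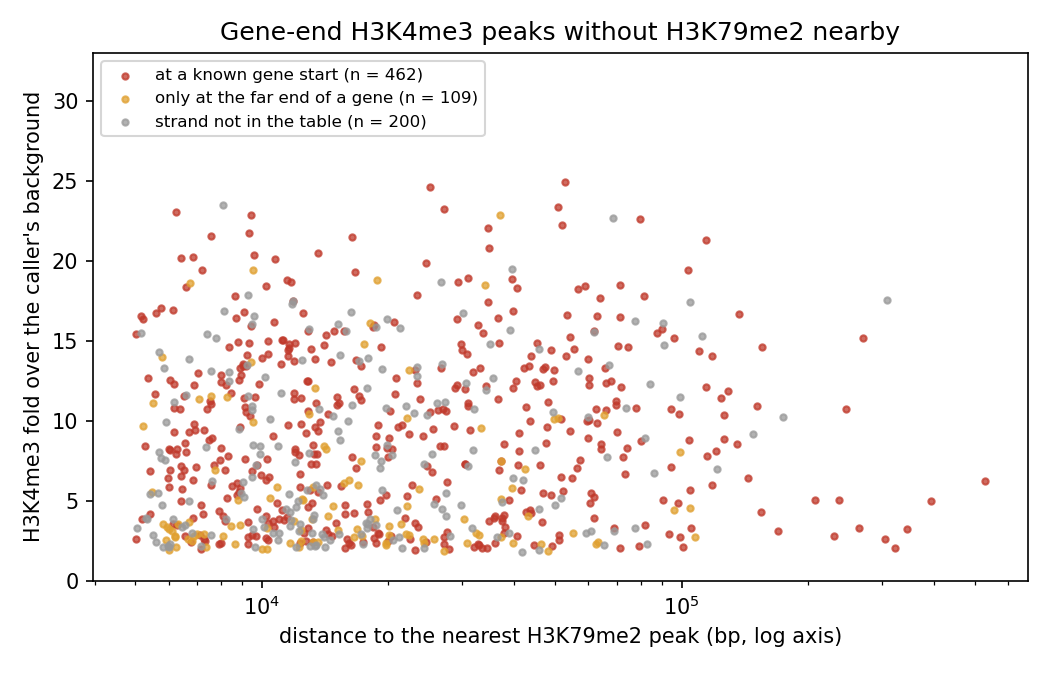
H3K4me3 fold over the caller's background (y axis) of each of the 771 members against its distance to the nearest H3K79me2 peak in bp (x axis, log scale), coloured by the gene end it lies at. Members above 15-fold lay as near as 5007 bp (NEK5, 15.4-fold) and as far as 307799 bp (PLCB4, 17.6-fold).

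Beyond overlap itself, the fold changed little with distance to H3K79me2. Among peaks with no H3K27me3, those that overlapped H3K79me2 had a median fold of 17.0. Those 0 to under 1000 bp away had 7.21, those 1000 to under 5000 bp away 7.88 and those 5000 to under 10000 bp away 7.77. At 10000 to under 50000 bp it was 7.47, at 50000 to under 100000 bp 10.1 and at 100000 bp or more 8.32. The step lay between overlap and no overlap, not at the 5000 bp of the rule. Median width had the same step, 3660 bp with overlap and 1525 to 1785 bp in the classes without it. The part of width in the step of the fold was not tested. The members' own median distance was 17088 bp, and 56934 bp when H3K79me2 peaks past a q of 0.05 alone were counted.

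Which end of the gene a member marks could be read from the strand of start sites in the RefSeq promoter table. Of the members, 462 (59.9%) lay at a known start, 109 (14.1%) only at the far end of a gene and 200 (25.9%) beside genes whose strand the table does not give. For peaks with H3K79me2 nearby the shares were 80.3%, 3.33% and 16.4%, and 77.9% of all gene-end peaks lay at a known start. Members at a known start had a median fold of 9.22, those at a far end 3.55 and those of unknown strand 7.43. In peaks with H3K79me2 nearby the same medians were 17.0, 3.64 and 16.4, so the gap between the classes was small at far ends and wide at starts. Of the far-end members, 20 of 109 reached 10-fold.

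Some far-end members were strong, and these were chosen after their values were seen. SPOCD1 had 19.4-fold, F12, the gene of coagulation factor XII, 18.8-fold and PRDM12, a PR domain factor gene of sensory neurons, 18.6-fold. LOC124900418 had 18.5-fold, and the end of the non-coding gene UCA1 lay within the same window. A non-coding gene end lay within 1000 bp of 174 members (22.6%), against 2394 (28.7%) of peaks with H3K79me2 nearby and 27.8% of all gene-end peaks. Most members, 683, lay beside 1 protein-coding gene, and 88 (11.4%) beside 2 or more. The latter share was 22.6% in peaks with H3K79me2 nearby, 18.8% in those with both marks and 5.69% in peaks with H3K27me3.

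Many member genes had no H3K79me2 anywhere in the gene record. H3K79me2 elsewhere in the gene, over 5000 bp from the peak and in either direction, was present for 366 members (47.5%), for 6581 peaks with H3K79me2 nearby (78.8%) and for 341 peaks with H3K27me3 (47.3%), and for 74.2% of all gene-end peaks. At known starts alone it was present for 215 of 462 members (46.5%), against 79.5% of peaks with H3K79me2 nearby. No H3K79me2 anywhere in the gene was found for 405 members (52.5%), 1.64% of peaks with H3K79me2 nearby, 52.7% of peaks with H3K27me3 and 9.15% of all gene-end peaks. Peaks with H3K79me2 nearby were chosen for that mark within 5000 bp and members for its absence. The contrast between these classes is therefore largely set by the selection. These values follow the H3K79me2 list: with its peaks of −log10 q of at least 5 alone, 3.43% of the regions that meet the rule had H3K79me2 elsewhere in the gene. Gene length moved with this count: by construction a gene wholly within 5000 bp of a member holds no H3K79me2. Of the members 175 members lay at genes under 10000 bp, a class that made up 16.3% of all gene-end peaks. In that class 6 members (3.43%) had H3K79me2 elsewhere in the gene, against 14.6% of peaks with H3K79me2 nearby.

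In longer genes the values were higher but stayed below those of the peaks with H3K79me2 nearby. At 10000 to under 50000 bp 124 of 306 members (40.5%) had it elsewhere in the gene, against 84.1% of peaks with H3K79me2 nearby. At 50000 to under 200000 bp it was 153 of 196 (78.1%) against 98.6%, and at 200000 bp or more 83 of 94 (88.3%) against 99.8%. Peaks with H3K27me3 had 26.5%, 62.4% and 89.2% in the same order, below the members except at 200000 bp or more. The share of each length class that were members was 10.1%, 6.46%, 6.02% and 10.5% from the shortest to the longest.

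**Figure D3:**
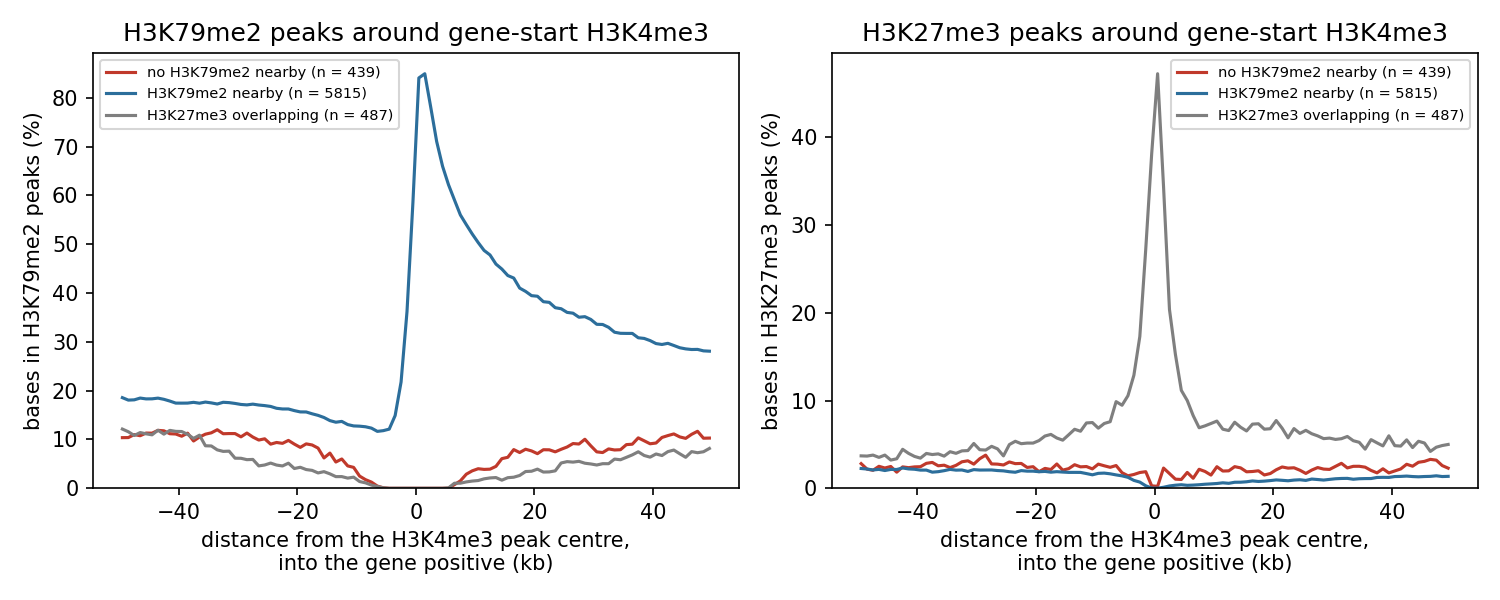
Percent of bases in H3K79me2 peaks (left) and H3K27me3 peaks (right) on the y axis, in bins of 1000 bp from 50 kb before to 50 kb after the centre of gene-start H3K4me3 peaks on the x axis, for 439 members, 5815 peaks with H3K79me2 nearby and 487 with H3K27me3. The rule fixes the gap in H3K79me2 around the members. From 10 to 50 kb into the gene they average 8.37% in H3K79me2 and 2.29% in H3K27me3.

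Around starts, members had less H3K79me2 and more H3K27me3 than peaks with H3K79me2 nearby. Between 10 and 50 kb into the gene H3K79me2 covered 8.37% of bases for members, 35.5% for peaks with H3K79me2 nearby and 5.07% for peaks with H3K27me3. Upstream, between 50 and 10 kb before the peak, it covered 9.71%, 16.7% and 7.16% in the same order. The classes were chosen by H3K79me2 within 5000 bp of the peak, and a peak of that mark can run on along the gene. These differences in H3K79me2 are therefore not independent of the selection. H3K27me3 covered 1.51% of bases from 1 to 5 kb into the gene for members, 0.284% for peaks with H3K79me2 nearby and 20.3% for peaks with H3K27me3. The members thus lay between the other classes in H3K27me3 while sharing none of its bases, as the rule requires. The peaks with H3K27me3 were themselves chosen for overlap with that mark.

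H3K27me3 lay closer to members than to peaks with H3K79me2 nearby. An H3K27me3 peak was within 5000 bp of 293 members (38.0%), against 1874 (22.5%) of the peaks with H3K79me2 nearby, and 34.5% of all gene-end peaks, overlaps included. Counting H3K27me3 peaks past a q of 0.05, the shares were 8.43% in members and 3.23% in peaks with H3K79me2 nearby. They were 78.8% in peaks with H3K27me3 and 29.7% in peaks with both marks, classes chosen for that overlap. The share over all gene-end peaks was not computed at this q. Median distance was 7369 bp in members and 13848 bp in peaks with H3K79me2 nearby. The nearest other H3K4me3 peak lay a median of 10610 bp from members, 6322 bp from peaks with H3K79me2 nearby and 17583 bp from peaks with H3K27me3.

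Members named after their values were seen are examples of genes whose start carried strong H3K4me3 while the whole gene had no H3K79me2 peak. MAPK3, the ERK1 kinase gene, had 21.5-fold, SPHK1, a sphingosine kinase gene, 19.3-fold and SLC4A3, an anion exchanger gene, 19.9-fold. The transcription factor genes KLF2 and MYB had 18.8-fold and 18.4-fold, and both lay close to an H3K27me3 peak, at 167 and 229 bp. SPHK1 and KLF2, of 4652 and 3860 bp, lie wholly inside the stretch that the rule keeps free of H3K79me2. HSPA6, an inducible heat shock gene, had 17.8-fold, HPGD, which degrades prostaglandins, 16.6-fold and LOXL1, a matrix crosslinking enzyme gene, 16.3-fold. Longer genes were among them too: ARHGEF26, of 136823 bp, had 16.7-fold and NDST3, a heparan sulfate enzyme gene of 225313 bp, had 16.5-fold.

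Other signalling genes kept a trace of H3K79me2 farther in, and were also chosen after their values were seen. FN1, the fibronectin gene, had 17.1-fold at its start, and 1.94% of the gene lay in H3K79me2. MRAS, a Ras family gene, had 20.8-fold with 1.91%, and IL20RA, a cytokine receptor gene, 20.2-fold with 0.649%. TGFB2, a ligand gene of the TGF-beta family, had 12.3-fold with 6.69%, and NR4A1, an orphan nuclear receptor gene, had 12.3-fold with 1.25%. For comparison, the median over peaks with H3K79me2 nearby was 51.2% of the gene.

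**Figure D4:**
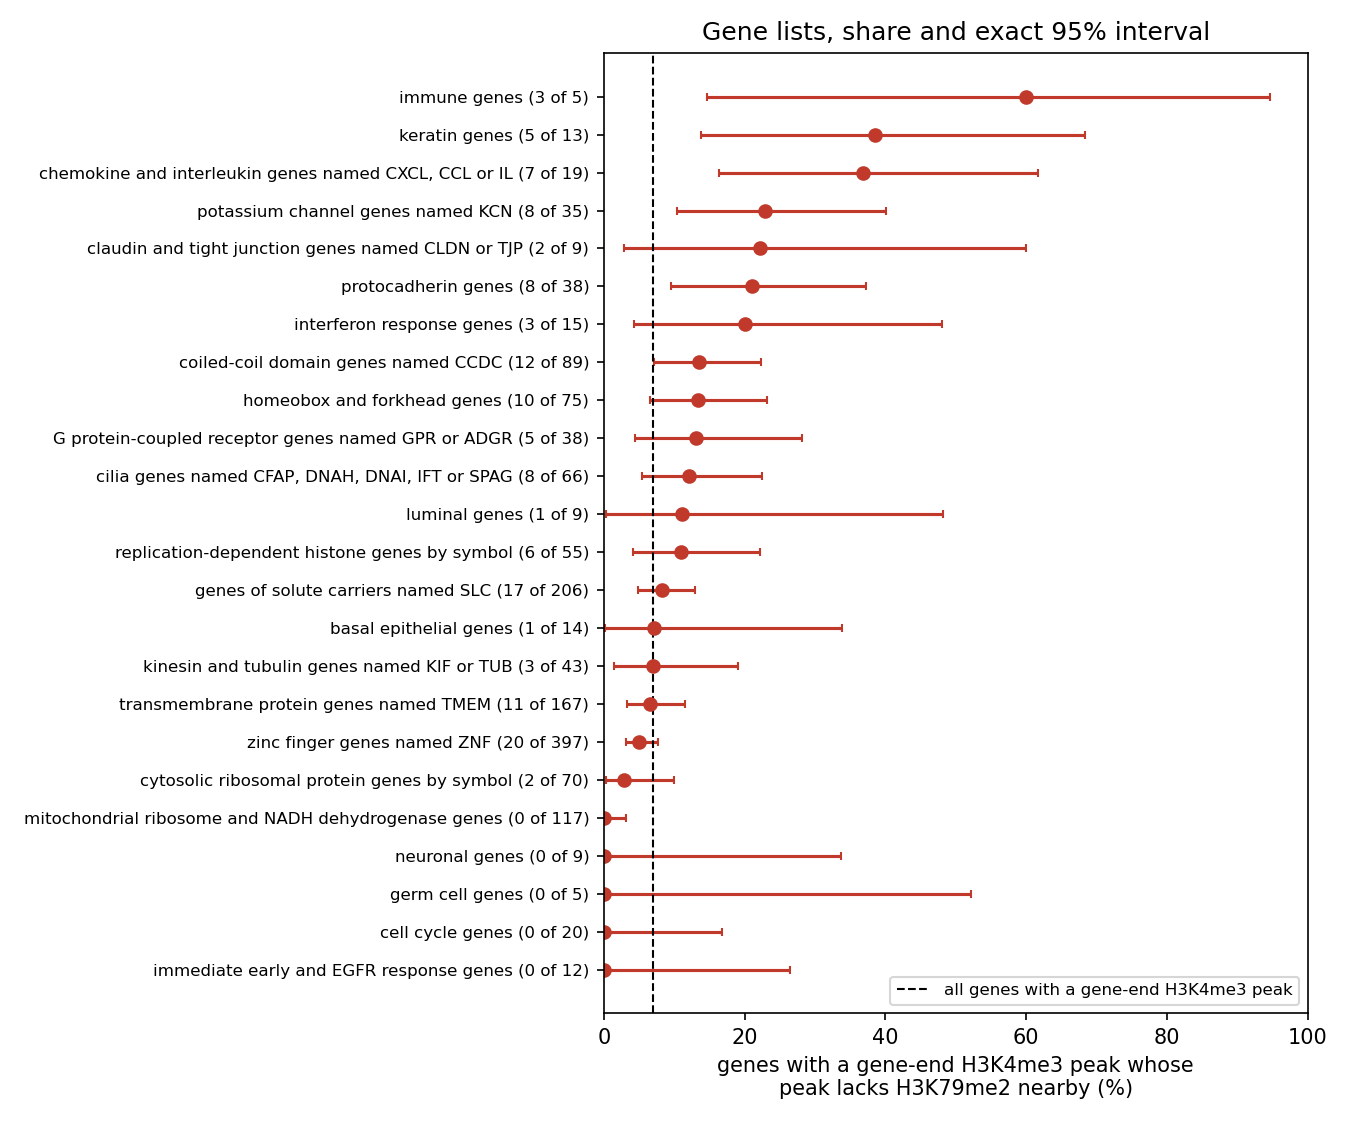
Percent of genes with a gene-end H3K4me3 peak that are near a member (x axis), for 24 gene lists (rows). Exact 95% intervals are lines, and the share over all genes with a gene-end peak, 7.03%, is a dashed line. Peaks that lack H3K79me2 nearby but overlap H3K27me3 are not members. Keratin and cytokine lists lie above the line, and mitochondrial genes are at 0 of 117.

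Counted by gene, 843 of the 11989 protein-coding genes with a gene-end peak were near a member, which is 7.03%. Lists of housekeeping and growth genes had low counts, and of these the mitochondrial one alone had an interval below 7.03%. It was 0 of 117 genes of the mitochondrial ribosome and NADH dehydrogenase (interval up to 3.10%), 0 of 20 cell cycle genes (up to 16.8%) and 0 of 12 immediate early and EGFR response genes (up to 26.5%). Of 70 cytosolic ribosomal protein genes 2 were near a member (0.348 to 9.94%), and both, RPL3L at 13.8-fold and RPL39L at 8.38-fold, are paralogs with restricted expression. Of 9 neuronal and 5 germ cell genes with a gene-end peak, 0 were near a member, and these counts are small.

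Lists of secreted signals and of adhesion and channel genes held more. It was 7 of 19 chemokine and interleukin genes (36.8%, interval 16.3 to 61.6%): IL11 had 11.4-fold, IL6 6.81-fold, CXCL14 6.51-fold and IL4 5.03-fold. It was 8 of 35 potassium channel genes (22.9%, 10.4 to 40.1%), led by KCNJ11, the pore of the ATP-sensitive channel, at 16.3-fold and KCNMA1, the large-conductance calcium-activated channel, at 14.9-fold. KCNG3 had 13.9-fold. It was 8 of 38 protocadherin genes (21.1%, 9.55 to 37.3%), led by PCDH7 at 21.3-fold and PCDHB14 at 9.32-fold, and PCDHB12 and PCDHB13 shared 1 peak of 6.69-fold. These shares lie above the 7.03% of all genes, and they come from lists chosen with earlier results of these data known.

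Interferon and immune lists were small. Of 15 interferon response genes with a gene-end peak 3 (20%) were near a member: MX1, an antiviral GTPase gene, at 14.6-fold and 155077 bp from H3K79me2, RSAD2, the viperin gene, at 12.1-fold and IFIT2 at 7.95-fold. RSAD2 shares its peak with CMPK2. Of 5 immune genes 3 were near a member: CD8A, a T cell coreceptor gene, at 13.2-fold, SPI1, a myeloid factor gene, at 7.03-fold and CSF1R, a macrophage receptor gene, at 3.31-fold.

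Among epithelial genes, 5 of 13 keratin genes were near a member (38.5%, 13.9 to 68.4%), all under 5-fold: KRT80 had 4.75-fold, KRT222 4.47-fold, KRT16 3.22-fold and the shared peak of KRT19 and KRT15 3.08-fold. KRT15 was the 1 of 14 basal genes and KRT19 the 1 of 9 luminal genes near a member. Of 9 claudin and tight junction genes 2 were near a member, CLDN23 at 13.8-fold and TJP3 at 7.22-fold.

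For developmental factor, cilia and receptor genes the interval held the 7.03% of all genes. It was 10 of 75 homeobox and forkhead genes (13.3%, 6.58 to 23.2%), among them NKX2-8 at 22.6-fold, LHX1 at 13.8-fold and FOXB1, at its far end, at 13.7-fold. It was 8 of 66 cilia genes (12.1%, 5.38 to 22.5%), led by CFAP206 at 17.7-fold, DNAH7, an axonemal dynein gene, at 15.6-fold, CFAP20DC at 13.2-fold and CFAP221 at 10.4-fold. The 12 of 89 genes named CCDC (13.5%) had an interval of 7.17 to 22.4%, which lay just above the 7.03%. Among them were CCDC85A, CCDC27 at 18.7-fold, CCDC171 at 16.6-fold and CCDC39, also a cilia gene, at 14.6-fold. The CCDC27 peak lies at the known start of SMIM1, and which end of CCDC27 it marks is not known. The 5 of 38 orphan and adhesion receptor genes (13.2%, 4.41 to 28.1%) were led by ADGRL3 at 18.2-fold.

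The large families lay near the share of all genes. It was 17 of 206 solute carrier genes (8.25%), with SLC30A2, SLC4A3, SLC27A2 at 15.6-fold and SLC2A4 at 10.3-fold at the top. It was 11 of 167 genes named TMEM (6.59%), 3 of 43 kinesin and tubulin genes (6.98%) and 20 of 397 zinc finger genes named ZNF (5.04%). ZNF343 had 20.5-fold and ZNF804A 18.9-fold. Of 55 replication-dependent histone genes 6 (10.9%) were near a member: H2AC16 and H1-5 shared a peak of 16.9-fold, H3C1 and H4C1 one of 10.7-fold, H1-3 had 9.27-fold and H4C3 6.01-fold. The longest of these histone genes, H1-5, has 797 bp, so each lies wholly inside the stretch that the rule keeps free of H3K79me2.

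A gene can have a member at one place and a peak with H3K79me2 at another. This held for 115 genes. In 67 of them the member was not at the known start and the other peak was, with median folds of 3.54 at the members and 17.2 at the other peaks. As examples chosen after their values were seen, EPAS1, a hypoxia-inducible factor gene, had 2.48-fold at the member and 21.4-fold at its start. PPARGC1B, a coactivator gene of mitochondrial biogenesis, had 3.09-fold and 26.7-fold, and KLF13, a Krüppel-like factor gene, 3.85-fold and 23.1-fold. In 21 genes the member was at the known start and the other peak was not, with medians of 11.6 and 16.1.

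Some members were an outer start of a gene with a second, H3K79me2-covered peak inside. Of the 462 members at a known start, 52 (11.3%) had another H3K4me3 peak of at least 1000 bp inside the gene that overlapped H3K79me2. Other gene-start peaks were not counted in this way, so this share cannot be read as particular to members. Among examples chosen after their values were seen, TUBGCP3, a gamma-tubulin complex gene, had 7.70-fold at its start and 20.3-fold at the inner peak. LTBP1, which binds latent TGF-beta, had 18.7-fold and 14.1-fold, and PRDM1, the gene of the repressor BLIMP1, 15.02-fold and 10.8-fold. INPP4B had 23.3-fold and 8.51-fold, and STOX2 24.6-fold and 6.84-fold. Whether the inner peaks are alternative starts of the same gene was not tested.

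Members also occurred side by side. There were 8 runs of 3 members with no other gene-end peak of the same width range between them. Runs at ETNK2, DNAAF3, YPEL3 and UNC5CL named the same gene more than once. The number of runs to be had from the share of members alone was not computed. On chromosome 16 the peaks of TBX6 with YPEL3, of YPEL3 and of MAPK3, within chr16:30091356-30123867, had 13.3 to 21.5-fold. On chromosome 1 those of HSPA6, FCGR3A and FCGR3B had 10.3 to 17.8-fold. The peaks of FCGR3A and FCGR3B lie at the far ends of these genes. FCGR3A and FCGR3B are near-identical copies between which reads may not be told apart. Also on chromosome 1, LCE1E, SPRR1B and SPRR2D, genes of the epidermal cornified envelope, had 2.32 to 2.98-fold. On chromosome 5 a run of PCDHB8, PCDHB13 with PCDHB12 and PCDHB14 had 4.13 to 9.32-fold. Over chromosomes, the share of gene-end peaks that were members ran from 5.59% on chromosome 17 to 11.4% on chromosome 4 (49 of 431, 8.53 to 14.8%).

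Promoter sequence could be read for part of the members only. Of the 843 member genes 623 (73.9%) have an entry in the RefSeq promoter table, which is under the 80% needed, so a comparison of sequence over the members as a set is void. The table's own windows are described here. Of 483 windows inside members 335 (69.4%, 65.0 to 73.4%) were CpG-rich, against 85.6% of 9407 windows in peaks with H3K79me2 nearby and 60.4% of all 21156 windows. The promoters printed above, all at strong peaks, range over both sides of the limit. A start of the table lay inside 394 members, and 280 of these (71.1%, 66.3 to 75.5%) held a CpG-rich one, against 90.6% of the 6545 peaks with H3K79me2 nearby that hold a start. The other 377 members hold no start of the table, so over all members the share is 36.3%.

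Short motifs were searched on both strands of the same windows, and a window can hold several. The ETS site CCGGAAG was in 33 of 483 member windows (6.83%), in 21.5% of windows in peaks with H3K79me2 nearby and in 12.9% of all windows. In the same order, the YY1 core AAGATGG was in 2.90%, 8.22% and 5.96%, the NRF1 core GCGCATG in 3.73%, 8.26% and 5.18% and the CRE half-site TGACGT in 6.0%, 11.8% and 8.82%. The E-box CACGTG was in 6.63%, 10.4% and 8.25%, the CCAAT box in 31.3%, 36.0% and 34.4% and the GC box GGGCGG in 66.7%, 73.5% and 56.6%. The TATA box TATAAA was in 8.28%, 4.67% and 9.51%, and the AP-1 site TGANTCA in 6.83%, 3.68% and 6.08%. A match is only a match of letters. These shares describe the table's windows alone, since the table covers too few member genes for a comparison over the members. The CpG-rich share also differed between the window sets, and its part in these values was not tested.

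Near the minimum width, the 5000 bp distance and the gene-end window, the folds just inside and just outside it spanned overlapping ranges. The narrowest members were at TPCN1 and SLC8B1 (1000 bp, 2.84-fold), GRIN2C (1002 bp, 5.49-fold) and PLA2G4C (1003 bp, 6.31-fold), and just under the minimum lay CFAP54 (999 bp, 12.3-fold), ARHGEF16 (998 bp, 2.95-fold) and SLC38A11 (997 bp, 7.30-fold). Just beyond 5000 bp of H3K79me2 were NEK5 (5007 bp, 15.4-fold), NPIPA5 (5015 bp, 2.61-fold) and TRMT9B (5053 bp, 3.27-fold), and just within were FBF1 (4973 bp, 2.77-fold), KLHDC1 (4970 bp, 11.9-fold) and MC1R (4960 bp, 4.17-fold). At the limit of the gene-end window DDB1 (2.80-fold), GARIN2 (3.34-fold) and ABHD4 (2.44-fold) were just inside, and CA14 (2.45-fold), ELOVL3 (3.46-fold) and LOC124900389 (2.59-fold) just outside.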

How the data were processed

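Peak lists of H3K4me3, H3K79me2 and H3K27me3, 1 library each, were used as deposited. Bowtie2 2.3.1, MACS2 2.1.1 and the build hg38 are named in the submitters' processing notes. A p threshold of 0.05 is part of the deposited names of the peaks. The fold of a peak is the authors' ratio over the caller's background, and the −log10 p and −log10 q are the authors' deposited values of the caller. The control given to the caller and the handling of duplicate reads are not given in these sources. Read depth is unknown, so precision could not be given per peak.

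Gene records came from a RefSeq table of GRCh38.p14, the same build, without strand. Start sites and strand came from the RefSeq promoter table, which leaves out some genes and all of chromosome 8. Overlap required 1 bp. Percent shares have exact (Clopper-Pearson) 95% intervals, and medians have binomial order-statistic intervals. No test was made, since each mark has 1 library. The selection was tested on simulated data, with Python 3.11.15, numpy 2.4.6, pandas 2.3.3, scipy 1.17.1 and matplotlib 3.10.9.

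The members, the 24 gene lists and the 9 motifs were chosen with earlier results of these data known. Genes were named by a rule: the 12 highest folds, the 6 widest, the 6 farthest from H3K79me2, up to 4 per list by fold, and the 3 nearest on each side of each threshold. Genes outside this rule, such as those of second and inner peaks and of runs and the further keratin, histone and list genes, were chosen after their values were seen. A few genes the rule takes are not reported here. Promoter sequence was shown for the highest folds with 1 start in the peak. Alternatives tried were thresholds on each list, other distances, windows and widths, and gene starts alone.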

Additional observations from a re-analysis of the deposited data

Results flagged for a closer look

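Chromosome X is listed because it was outside the selection, while the same conditions can be applied to it. There, 37 of 374 gene-end H3K4me3 peaks met the rule (9.89%, exact 95% interval 7.06 to 13.4%), against 771 of 10619 (7.26%) on chromosomes 1 to 22, a share that lies inside the interval. Their median fold was 8.77, with a range from 2.31 to 16.4, beside 7.95 for the members on chromosomes 1 to 22.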

How the results depend on the processing

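The number of members, 771, depended most on how strict the H3K79me2 list was. It was 2329 with H3K79me2 peaks of −log10 q of at least 1.3 and 7260 with at least 5. It was 1492 with H3K27me3 ignored, 513 with H3K4me3 peaks of at least 5-fold, 1276 and 215 with a minimum width of 500 and 2000 bp, and 462 at gene starts alone. The other 7 of 14 alternatives stayed within 1.5 times, from 555 to 999. The median fold, 7.95, was 12.5 and 16.2 under the 2 H3K79me2 thresholds, 7.06 with a gene-end window of 2000 bp, 8.96 with H3K27me3 ignored, 8.80 and 10.7 with H3K4me3 peaks past −log10 q of 1.3 and 5, 11 past a fold of 5, 4.72 and 10.7 at the 2 other widths and 9.22 at gene starts. In all 14 alternatives it was below the median of the peaks with H3K79me2 nearby, but with H3K79me2 −log10 q of at least 5 the gap narrowed to 16.2 against 17.2. The share with H3K79me2 elsewhere in the gene, 47.5%, was 24.3% and 3.43% under the H3K79me2 thresholds, 52.9% with 2000 bp free of H3K79me2 and 41.1% with 10000 bp. The share of all members holding a CpG-rich start, 36.3%, counts the 377 with no start in the table as without one and so moves with table coverage. It was 47.7% and 65.9% under the H3K79me2 thresholds, 39.97% and 31.3% with gene-end windows of 500 and 2000 bp, 46.2% with H3K27me3 ignored, 40.03%, 46.5% and 49.3% under the H3K4me3 thresholds, 28.5% and 43.3% at the 2 other widths and 60.6% at gene starts. The cause of these shifts was not tested. No paired analysis was possible because each mark has 1 library. Unknown depth limits what absence of a peak can show.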
